A study of Homo sapiens with 9 samples.

Results

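The kinases that phosphorylate splicing factors were followed through 9 RNA-seq libraries of HCT-116 cells, a line established from a human colon carcinoma. The 8 genes described are the CDC2-like kinases CLK1, CLK2, CLK3 and CLK4, the SR protein kinases SRPK1 and SRPK2, and the related kinases DYRK1A and PRPF4B. They were taken by gene name from the gene tables, which hold 32449 genes in all, together with their 107 distinct rows in the splicing tables. ORF cells (3 libraries) carried a stable construct of the LINC00266-1 open reading frame, which encodes a peptide. The libraries labelled MT (3) are described as stable expressers of that frame together with the 5′ UTR, in which ATT replaces the ATG start. The NC group (3 libraries) carried a blank vector. All groups shared the HCT-116 background and RPMI 1640 medium with serum. The sources used here name neither clones nor the promoter of the constructs. The series asks whether the peptide alters mRNA splicing, and the comparisons below ask whether the kinases upstream of splicing differed between the groups, in level or in their own splicing.

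SR proteins are splicing factors whose arginine-serine repeats must be phosphorylated and dephosphorylated for a splicing cycle to run. SRPK1 and SRPK2 act mainly in the cytoplasm, where they phosphorylate SR proteins for import into the nucleus. The CLK kinases act in the nucleus and release SR proteins from nuclear speckles. DYRK1A, a kinase of the same CMGC branch, phosphorylates many nuclear proteins, SR proteins among them, and PRPF4B is a kinase of the spliceosome itself. The CLK genes are known for splicing their own transcripts in a regulated way: exon 4 can be skipped, which gives a message without a catalytic kinase, and the introns around it can be detained in the nucleus.

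The gene structure of the 4 CLK genes was alike in GENCODE 29 (GRCh38). Each reference transcript had 13 exons, with a 67-base exon 5, by which exon 4 was located, and a 167-base exon 7, and encoded a protein of 484 amino acids for CLK1, 498 for CLK2, 490 for CLK3 and 481 for CLK4. Exon 4 was 91 bases long in CLK1 (chr2:200860125-200860215, minus strand) and in CLK4 (chr5:178617344-178617434, minus strand) and 97 bases long in CLK3 (chr15:74622120-74622216, plus strand). In CLK2 (chr1:155268708-155268795, minus strand) it was 88 or 85 bases long, because 2 acceptors lie 3 bases apart. None of these lengths is a multiple of 3, so skipping exon 4 shifts the reading frame, and the annotation lists the skipped form of CLK1 (CLK1-204) and one of CLK4 (CLK4-210) as targets of nonsense-mediated decay. All of exon 4 is coding in all 4 genes.

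The splice sites of exon 4 are shown because the skipped exon and the retained introns of the CLK genes both end on them. They were read 5′ to 3′ from annotated GENCODE 29 transcripts that keep the intron, and the capitals mark the intron's GT or AG. Donors show the last 3 bases of exon 4 and the first 6 of intron 4.
CLK1 exon 4 donor (chr2:200860119-200860127, minus strand): gatGTatag
CLK2 exon 4 donor (chr1:155268702-155268710, minus strand): gatGTacaa
CLK3 exon 4 donor (chr15:74622214-74622222, plus strand): gatGTacag
CLK4 exon 4 donor (chr5:178617338-178617346, minus strand): gatGTatag
Acceptors show the last 20 bases of intron 3 and the first 3 of exon 4, and in CLK2 both acceptors are in capitals.
CLK1 exon 4 acceptor (chr2:200860213-200860235, minus strand): cgcccacttgacgtttccAGaag
CLK2 exon 4 acceptors (chr1:155268790-155268812, minus strand): cccctgccccccgacAGcAGcac
CLK3 exon 4 acceptor (chr15:74622100-74622122, plus strand): tcggggggcggtgcatgcAGaga
CLK4 exon 4 acceptor (chr5:178617432-178617454, minus strand): ctgcccacttgccgttccAGaag
The 4 donors begin with the same 6 bases, and those of CLK1 and CLK4 are identical over all 9. Set against the donor consensus CAGGTAAGT on the transcript strand, each shared 4 of 9 letters. Of 28 donors of the 8 kinase genes that could be read this way, the lowest value was 4, the median 6 and the highest 9, and the 4 exon 4 donors were the only ones at 4. Among 46081 readable donors of all annotated genes, 8.13% shared 4 letters or fewer. These were 15.3% of annotated donors, those lying inside an exon of another transcript. A shared letter count is a description of sequence and not a measure of splicing.

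For comparison, the splice sites of CLK1 intron 7 (chr2:200856986-200857717, minus strand), which is also retained in part, are given here.
CLK1 intron 7 donor (chr2:200857712-200857720, minus strand): attGTaagt
CLK1 intron 7 acceptor (chr2:200856983-200857005, minus strand): aactttctctttattctcAGttt
This donor shared 6 of 9 letters with the consensus. The map of CLK1 shows where the exons and retained regions lie.

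**Figure D1:**
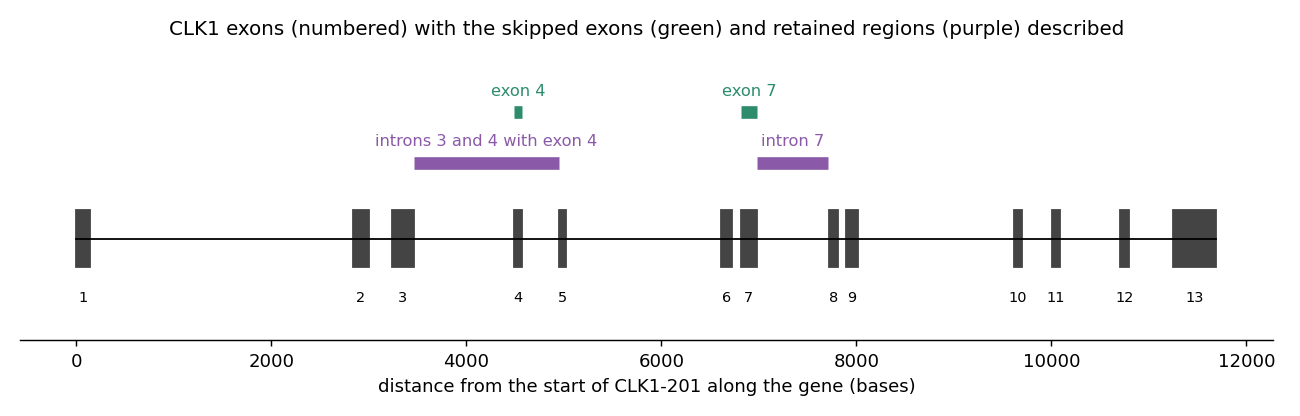
Map of CLK1, drawn to scale by distance in bases from the start of its reference transcript, with exons 1 to 13 as dark boxes, skipped exons in green and retained regions in purple. The region of introns 3 and 4 spans 1491 bases and holds exon 4 inside it, and intron 7 spans 732 bases directly after exon 7.

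Over the genes shared by both tables, the libraries held between 19459198 reads (ORF replicate 2) and 24369596 reads (MT replicate 2). LINC00266-1 held 9951, 10229 and 10310 reads in ORF, against 1, 0 and 0 in libraries labelled MT and 1, 0 and 0 in NC, so the level in libraries labelled MT goes against a label that names a construct of this gene. PKM, a glycolytic enzyme gene, took 4.52% of reads in ORF, 0.296% in libraries labelled MT and 0.271% in NC, and its part in the results below cannot be told apart from that of the reading frame. Of 6 markers of colon epithelial cells, CDX2, EPCAM, CDH1, KRT8 and KRT18 were abundant in every library, while VIL1 held at most 7 reads. Of the markers of other cell types, COL1A2 and DCN held at most 9 reads and PECAM1 5 to 16. Within groups, gene levels deviated with the GC content of the gene: the correlation across genes ran from -0.743 in ORF replicate 2 to 0.79 in ORF replicate 1. No source used here says that replicates were separate cultures, so each test measures only how these samples vary, and part of that may be technical.

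Per kilobase of the deposited gene length, averaged over 9 libraries, SRPK1 was the most abundant of the 8 kinases at 296.8 ± 44.6 normalized reads per kb, followed by CLK2 at 267.2 ± 29.5 (SD over 9 libraries). SRPK2 at 150.1 ± 14.9 and PRPF4B at 137.5 ± 32.2 came next, then CLK3 at 76.9 ± 9.4, CLK1 at 70.4 ± 29.6, DYRK1A at 46.1 ± 5.2 and CLK4 at 12.4 ± 4.2. SRPK1 and CLK2, SRPK2 and PRPF4B, CLK3 and CLK1, and CLK1 and DYRK1A were neighbours within their spread, while CLK3 and DYRK1A differed by more than theirs. CLK4 was below all the others. The deposited lengths of CLK3 (20443 bases) and DYRK1A (26602 bases) are several times longer than those of the others, which lowers their values on this scale.

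CLK1 had 320.6, 594.8 and 611 normalized reads in ORF, 310.4, 208 and 279.1 in libraries labelled MT, and 268.9, 225.7 and 455.4 in NC (recovered reads over size factors, replicates 1 to 3). The mean was 508.8 ± 163.2 in ORF, 265.8 ± 52.5 in libraries labelled MT and 316.7 ± 122 in NC (SD, n = 3). ORF replicates 2 and 3 lay above every other library, ORF replicate 1 lay inside the range of NC and above all libraries labelled MT. Of genes with a mean of 100 or more, 1389 of 11144 had all ORF libraries above all libraries labelled MT. The log2 fold change of ORF against NC was 0.69 ± 0.29 (SE; 95% interval 0.06 to 1.31) and did not pass the test (limma adjusted p = 0.285). Against the libraries labelled MT it was 0.9 ± 0.25 (0.34 to 1.45, adjusted p = 0.167), and it did not pass either. Both comparisons rest on the same ORF libraries.

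The outcome for CLK1 turned on ORF replicate 1. Without it the log2 fold change of CLK1 was 0.99 against NC (limma adjusted p = 0.0165) and 1.2 against the libraries labelled MT (adjusted p = 0.00319), and both passed. CLK1 transcripts are 35.7% GC, less than in all but 2.85% of measured genes. With each library adjusted for GC content and length, the change was 0.88 against NC (limma adjusted p = 0.00492) and 0.88 against the libraries labelled MT (adjusted p = 0.00119). The adjusted values thus pass the threshold where the unadjusted ones do not. DESeq2 on recovered reads gave 0.94 against the libraries labelled MT (adjusted p = 0.0186) and 0.68 against NC (adjusted p = 0.14), and edgeR passed neither. Calls over all genes also varied widely between such settings, as the ranges in the closing section show. These passes therefore do not single out CLK1. The authors' deposited table gives a log2 fold change of 0.68 and an adjusted p of 0.173 for CLK1 in ORF against NC. In a bulk sample, fewer cells with the RNA and less RNA per cell cannot be told apart.

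CLK2 had 968.4, 854.8 and 899.1 normalized reads in ORF, 1111.3, 1149.2 and 1070.1 in libraries labelled MT, and 915.4, 991.1 and 866.8 in NC. All 3 libraries labelled MT lay above all ORF and all NC libraries, while ORF and NC overlapped. Of genes with a mean of 100 or more, 740 of 11307 had all libraries labelled MT above all NC libraries. ORF lay below all libraries labelled MT for 938 of 11144 such genes. The share with both separations was not counted. The log2 fold change was 0.27 ± 0.11 for MT against NC (SE; limma adjusted p = 0.744) and -0.29 ± 0.14 for ORF against MT (adjusted p = 0.4), and neither passed. After adjustment for GC content and length, ORF against MT was -0.3 and passed (limma adjusted p = 0.0423). The calls over all genes with this adjustment are given only within the ranges of the closing section. For ORF against NC the change was -0.03, with a 95% interval of -0.31 to 0.25.

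CLK3 had 1803.5, 1431.2 and 1665.7 normalized reads in ORF, 1597.9, 1910.5 and 1479.1 in libraries labelled MT, and 1439.0, 1511.3 and 1307.6 in NC. The groups overlapped, and the log2 fold changes were 0.2 ± 0.13 for ORF against NC (SE; limma adjusted p = 0.487) and 0.23 ± 0.12 for MT against NC (adjusted p = 0.744). CLK4, the fourth of the family and the scarcest, had 62.8, 145.2 and 142.9 normalized reads in ORF, 76.6, 62.9 and 115.1 in libraries labelled MT, and 70.5, 89.9 and 118 in NC. ORF replicates 2 and 3 were the highest, as for CLK1, while ORF replicate 1 was the lowest of the ORF libraries in both genes, and CLK4 transcripts are also low in GC (36.2%). Its log2 fold change of 0.26 ± 0.32 for ORF against NC had a 95% interval of -0.44 to 0.96 (limma adjusted p = 0.719).

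SRPK1, which phosphorylates SR proteins for nuclear import, had 1441.4, 2378.2 and 2113.0 normalized reads in ORF, 1971.0, 1563.2 and 2059.0 in libraries labelled MT, and 2149.9, 2029.8 and 2171.7 in NC. NC libraries lay close together and ORF libraries on both sides of them. The log2 fold change was -0.13 ± 0.17 for ORF against NC (SE; 95% interval -0.51 to 0.25) and -0.19 ± 0.12 for MT against NC (-0.44 to 0.07). SRPK2, its close relative, had 747.6, 1043.4 and 923.3 normalized reads in ORF, 969.1, 864.8 and 1013.4 in libraries labelled MT, and 990.9, 987.6 and 1026.9 in NC. Its change was -0.16 ± 0.14 for ORF against NC (-0.48 to 0.15) and -0.08 ± 0.11 for MT against NC (-0.31 to 0.16). For neither SRPK gene do these intervals reach a change of 1 on the log2 scale.

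DYRK1A had 1009.9, 1410.7 and 1286.5 normalized reads in ORF, 1132.2, 1045.7 and 1306.4 in libraries labelled MT, and 1201.3, 1342.0 and 1290.2 in NC, and all groups overlapped. PRPF4B had 645.6, 1330.5 and 1186.2 in ORF, 1192.9, 681 and 1153.8 in libraries labelled MT, and 1161.1, 1041.3 and 1334.1 in NC. In PRPF4B, the lowest values were those of ORF replicate 1 and MT replicate 2, which are also the libraries whose deviations increased most with GC content (correlations 0.79 and 0.781). PRPF4B transcripts are 37.5% GC. The part of GC content in the spread of single genes was not tested. The log2 fold changes for ORF against NC were -0.06 ± 0.15 for DYRK1A and -0.22 ± 0.23 for PRPF4B (SE; limma adjusted p = 0.86 and 0.666).

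**Figure D2:**
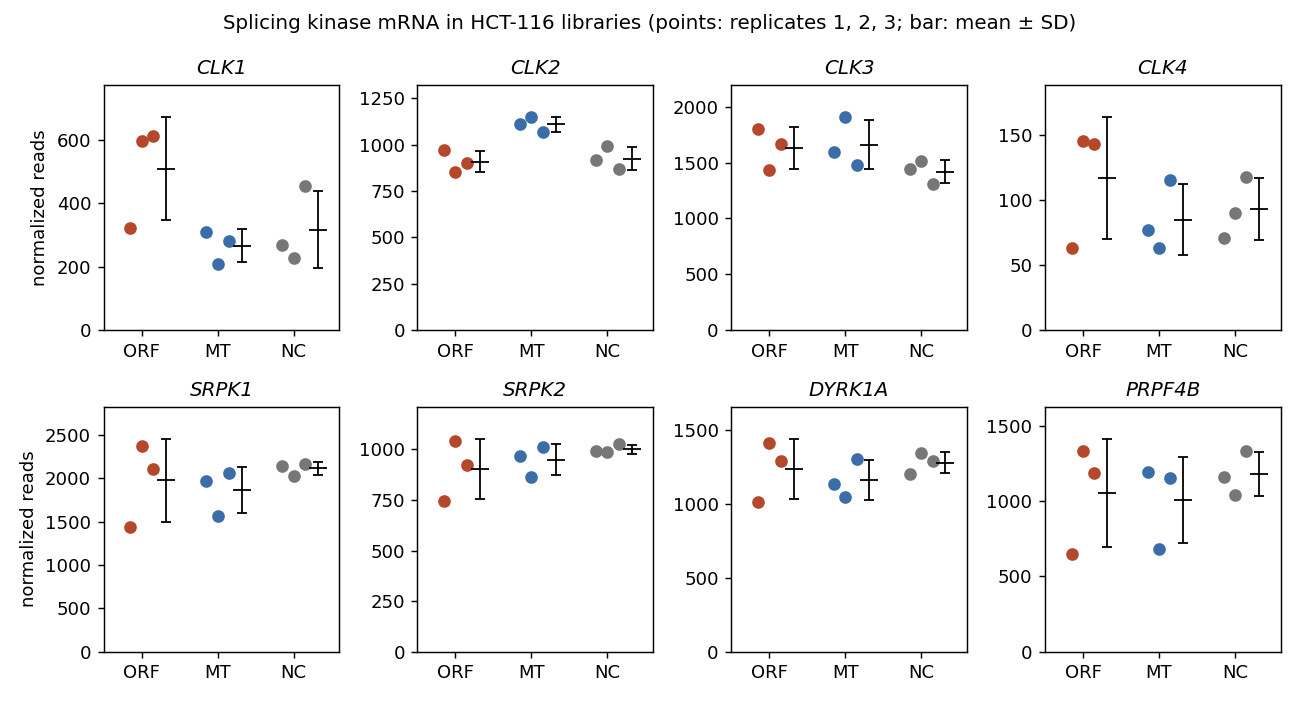
Normalized reads of the 8 kinase genes (vertical axes, linear from 0) in the ORF, MT and NC libraries, with a point per replicate and a bar for the mean with SD (n = 3). CLK1 in ORF replicates 2 and 3 (594.8 and 611) lies above all other libraries, and CLK2 in libraries labelled MT (1070.1 to 1149.2) lies above ORF and NC. Of genes with a mean of 100 or more, 740 of 11307 had all libraries labelled MT above all NC libraries.

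None of the 8 kinases passed limma at an adjusted p of 0.05 in any of the 3 comparisons, and 1 had an unadjusted p under 0.05 in each. Over all genes tested, 3867 of 24662 met that unadjusted cut in ORF against NC and 3195 of 24404 in ORF against MT. Of all genes tested, 0.418% (103 of 24662) passed in ORF against NC, 0% (0 of 25310; 1183 at an unadjusted p under 0.05, 0 by edgeR and 1 by DESeq2) in MT against NC, and 0.365% (89 of 24404) in ORF against MT. By edgeR 0 of the 8 passed in any comparison, and by DESeq2 only CLK1 in ORF against MT. For the comparisons with ORF, the calls of these tools over all genes are given only within the ranges of the alternatives below. Single calls by these tools, here and below, thus have no share of their own beside them. The median log2 fold change of the 8 was -0.05 in ORF against NC, beside -0.04 over all genes tested. In ORF against NC 3 of the 8 values were positive, those of CLK1, CLK3 and CLK4. ORF against NC and MT against NC share the NC libraries, and ORF against MT shares libraries with both.

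**Figure D3:**
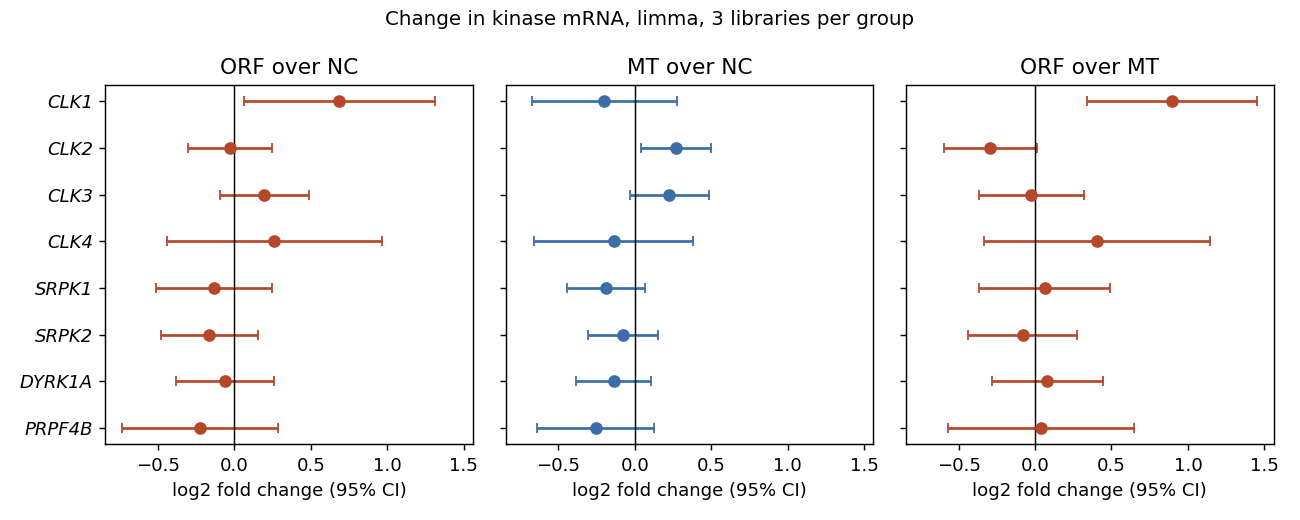
Log2 fold changes of the 8 kinase genes with 95% confidence intervals (limma, 3 libraries per group) for ORF over NC, MT over NC and ORF over MT. The interval of CLK1 excludes 0 in ORF over NC (0.06 to 1.31) and in ORF over MT (0.34 to 1.45), and that of CLK2 excludes 0 in MT over NC (0.04 to 0.5), before adjustment for the number of genes tested.

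The genes whose levels followed CLK1 most closely over the 9 libraries were ZMYM5, SNAPC1, TRMT13, CCNL1 and GALNT5, out of 11160 genes with a mean of 100 or more normalized reads. Their root mean square difference from CLK1, on log2 values centred over libraries, was 0.164 to 0.22, against a median of 0.578 over all these genes. CCNL1, cyclin L1, averaged 1493.3 normalized reads in ORF, 888.7 in libraries labelled MT and 1077.5 in NC. The 5 genes nearest to SRPK1 were SRP72, HEATR1, CLIC4, POLR2B and API5, with differences of 0.0205 to 0.0394 against a median of 0.307. SRP72, a protein of the signal recognition particle, averaged 1736.9 normalized reads in ORF, 1644.2 in libraries labelled MT and 1869.1 in NC. These are descriptions over libraries that share the GC-related spread described above.

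Among the substrates of the kinases, the SR protein SRSF1 rose in ORF against the libraries labelled MT. It had 2158.8, 2629.5 and 2881.9 normalized reads in ORF, 1342.2, 1052.5 and 1534.0 in libraries labelled MT, and 1653.5, 1545.7 and 1604.8 in NC, and ORF lay above every library of both other groups. The log2 fold change was 0.97 ± 0.18 for ORF against MT (SE; limma adjusted p = 0.046) and 0.66 ± 0.14 for ORF against NC (adjusted p = 0.068, not passed). The first call was lost without ORF replicate 2 (adjusted p = 0.0693), ORF replicate 3 (0.34), MT replicate 1 (0.249), MT replicate 2 (0.126) or MT replicate 3 (0.131). No other of the 14 SR proteins passed limma in any comparison. In ORF against NC, 6 of 14 had an unadjusted p under 0.05, beside 3867 of all 24662 genes tested. There edgeR passed 0 with TMM and 1 with RLE scaling (SRSF1), and DESeq2 passed 2 (SRSF1 and SRSF7). For 8 of the 14, all ORF libraries lay above all NC libraries, beside 1704 of 11088 genes with a mean of 100 or more, and the median log2 fold change was 0.24, beside 0.02 over those genes. In ORF against MT the median was 0.4, beside 0.017 over genes with a mean of 100 or more. There 8 of 14 had ORF above all libraries labelled MT, beside 1389 of 11144 such genes, and DESeq2 passed 3 (SRSF1, SRSF2 and SRSF7). In both comparisons the 8 include SRSF12, which lies far below a mean of 100. It held 5, 2 and 7 reads in ORF and 0, 0 and 1 in libraries labelled MT and in NC. Over all genes tested, the separated genes were 2845 of 24662 in ORF against NC and 2410 of 24404 in ORF against MT. In MT against NC 0 of 13 tested passed limma, edgeR or DESeq2, 1 had an unadjusted p under 0.05 (beside 1183 of 25310 genes), and the median was -0.14.

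The other gene lists of the pathway held no gene past limma in any comparison, and their unadjusted counts below stand beside 3867 of 24662 genes in ORF against NC. Of 12 other substrates and speckle proteins, 3 had an unadjusted p under 0.05 in ORF against NC and the median log2 fold change was 0.17. SRRM2, a scaffold of nuclear speckles, had the most reads of them, without regard to length, with 17064.4 to 19983.7 normalized reads in ORF, 17846.0 to 19721.2 in libraries labelled MT and 16850.4 to 17547.8 in NC. DESeq2 passed 1 gene of this list, CCNL1, in ORF against MT, and edgeR passed 0. Of 13 related kinases (SRPK3 and members of the DYRK, HIPK and CDK families), 1 had an unadjusted p under 0.05 in ORF against NC and the median was -0.07. HIPK2, a nuclear kinase, had the most reads, without regard to length, with 3000.5 to 3385.6 normalized reads in ORF, 2637.0 to 3202.7 in libraries labelled MT and 3296.9 to 3384.2 in NC. Of 15 genes of SRPK regulation, phosphatases and import (chaperones, phosphatases and an import factor, with the signalling genes AKT1, AKT2 and EGFR), 4 had an unadjusted p under 0.05 in ORF against NC and the median was 0.14. HSP90AB1, an HSP90 chaperone and the gene with the most reads here, had 115086.8 to 126356.1 normalized reads in ORF, 102442.8 to 106978.3 in libraries labelled MT and 96128.1 to 109241.8 in NC. Neither edgeR nor DESeq2 passed a gene of the last 2 lists.

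The splicing tables held 95 rows of the 8 kinases in the ORF set and 77 in the MT set, each made against NC, of which 65 were the same events. They comprised skipped exons (69 of the 107 distinct rows), retained introns (13), alternative acceptors (12), alternative donors (5) and mutually exclusive exons (8). Each row gives reads for the longer (inclusion) and the shorter (skipping) form, and the inclusion level is the length-scaled share of the longer form, from 0 to 1. The columns do not say which replicate each of the 3 values belongs to, so values below are in the listed order and cannot be tied to a library's gene level. Events averaging at least 20 reads per group, with a mean level between 0.05 and 0.95, were tested: 29 in ORF against NC, 28 in MT against NC and 27 in ORF against MT. SRPK1 had no event that passed this filter in any comparison, and CLK4 had 1, in MT against NC.

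No kinase event was called changed (limma adjusted p under 0.05 and a level difference of at least 0.05) in any comparison. At an unadjusted p under 0.05 there were 6 in ORF against NC, 1 in MT against NC and 4 in ORF against MT, beside 1975 of 23281, 1102 of 22046 and 1652 of 19264 events of all genes. Of all events tested, 0.0601% (14 of 23281) were called in ORF against NC, 0.00907% (2 of 22046) in MT against NC and 0.0934% (18 of 19264) in ORF against MT. The level differences of kinase events ran from -0.29 to 0.07 for ORF minus NC, from -0.11 to 0.23 for MT minus NC and from -0.45 to 0.07 for ORF minus MT. The lowest adjusted p in each comparison was 0.28, 0.708 and 0.264, in that order. Where the levels of groups are said below not to overlap, this is a description. The share of all events with such separation was not counted.

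Of the tested skipped exons and retained introns named here, the region around exon 4 of CLK1 had the largest mean level difference in each comparison. The region of introns 3 and 4 with exon 4 (chr2:200859747-200861237) had 54, 121 and 108 reads for the retained form in ORF, 132, 102 and 103 in libraries labelled MT, and 117, 105 and 212 in NC. The other form, in which exon 3 joins exon 5, had 19, 6 and 19 reads in ORF, 2, 4 and 0 in libraries labelled MT, and 6, 8 and 9 in NC. The resulting levels of the retained form were 0.205, 0.647 and 0.341 in ORF, 0.857, 0.699 and 1.0 in libraries labelled MT, and 0.639, 0.544 and 0.682 in NC. All ORF levels lay below all MT levels, all MT levels above all NC levels, and ORF and NC overlapped. The log2 odds differed by -3.25 ± 0.99 for ORF against MT (SE; limma adjusted p = 0.264), by -1.37 ± 0.72 for ORF against NC (adjusted p = 0.415) and by 1.88 ± 0.8 for MT against NC (adjusted p = 0.997), and none passed.

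This level sets the retained form against the form that skips exon 4, and the fully spliced message with exon 4 enters neither as a junction. Summed over 3 libraries, reads counted for the retained region were 20.7 per 100 reads of the CLK1 gene in ORF (283 of 1365), 39.8 in libraries labelled MT (337 of 847) and 42.5 in NC (434 of 1021). ORF thus held more CLK1 reads and fewer reads over this region than either other group. These sums carry no test, since the listed libraries cannot be matched to the gene table. In the annotation, 1 transcript keeps this whole region (CLK1-210) and 1 joins exon 3 to exon 5 (CLK1-204).

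Exon 4 of CLK1 as a skipped exon used the same skipping reads. Its inclusion reads were 21, 47 and 59 in ORF, 14, 10 and 20 in libraries labelled MT, and 3, 4 and 27 in NC. The inclusion levels were 0.407, 0.829 and 0.658 in ORF, 0.813, 0.608 and 1.0 in libraries labelled MT, and 0.237, 0.237 and 0.651 in NC. The event had too few reads to be tested in any comparison, and ORF overlapped both other groups. Skipping reads, which give the form without a catalytic kinase, were 44 in ORF, 6 in libraries labelled MT and 23 in NC.

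In CLK2, exon 4 could be tested and did not pass. The 88-base form had 106, 86 and 100 inclusion reads and 22, 15 and 30 skipping reads in ORF, 126, 158 and 167 against 5, 5 and 18 in libraries labelled MT, and 99, 137 and 108 against 5, 18 and 13 in NC. Its inclusion level was 0.752, 0.783 and 0.677 in ORF, 0.941, 0.952 and 0.854 in libraries labelled MT, and 0.926, 0.827 and 0.839 in NC. All ORF levels lay below all levels of both other groups. The log2 odds of inclusion differed by -1.21 ± 0.5 for ORF against NC (SE; 95% interval -2.44 to 0.02; limma adjusted p = 0.581) and by -2.04 ± 0.56 for ORF against MT (-3.4 to -0.67; adjusted p = 0.471), and neither passed the adjustment over all skipped exons. The 85-base form shares the skipping reads, and its levels were 0.646, 0.7 and 0.539 in ORF, 0.903, 0.921 and 0.755 in libraries labelled MT, and 0.896, 0.746 and 0.781 in NC.

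CLK3 exon 4 was included more often. Its level was 0.93, 0.896 and 0.885 in ORF, 0.919, 0.97 and 0.933 in libraries labelled MT, and 0.967, 0.927 and 0.94 in NC, from 754, 866 and 678 inclusion reads per group in that order. The groups overlapped, and the log2 odds for ORF against NC differed by -0.86 ± 0.47 (SE; limma adjusted p = 0.671). CLK4 exon 4 had 28 inclusion and 2 skipping reads in ORF, 16 and 4 in libraries labelled MT, and 15 and 1 in NC, over 3 libraries each. A difference was not detectable at this depth. Mean inclusion was lower in ORF than in NC for CLK2 and CLK3, which had reads to be tested and did not pass. CLK1 leaned the other way, on too few reads to be tested, with a deposited level difference of 0.256 for ORF minus NC. For CLK4 the deposited difference was 0.075, but with 2 skipping reads in ORF and 1 in NC no direction can be read from it. CLK1, CLK2 and CLK3 thus did not share a direction, and none of their differences was called.

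**Figure D4:**
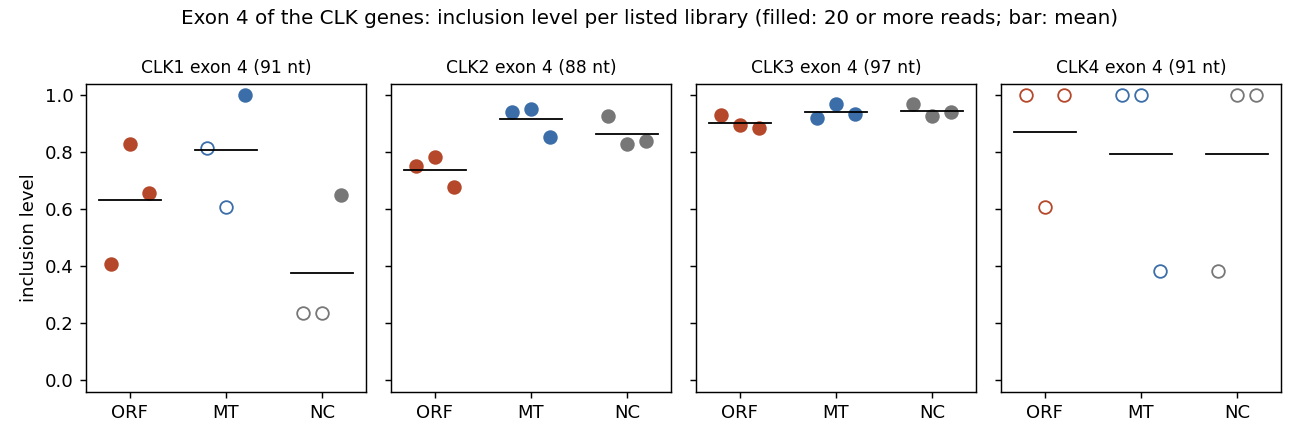
Inclusion level of exon 4 (vertical axis, 0 to 1) in the 4 CLK genes for each listed ORF, MT and NC library, with the mean as a bar; open points rest on fewer than 20 reads. CLK2 in ORF (0.677 to 0.783) lies below the libraries labelled MT (0.854 to 0.952) and NC (0.827 to 0.926), and CLK4 rests on few reads throughout.

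The mean level of every tested retained intron row was lower in ORF, but the rows measure unlike things. The CLK1 region of introns 3 and 4 is set against exon 4 skipping, and some PRPF4B rows lie or start inside the last exon. CLK1 intron 7, CLK3 introns 3 and 4 and PRPF4B intron 12 are set against their own splicing. Their level differences for ORF minus NC were -0.072, -0.028, -0.012 and -0.046, in that order. In ORF against NC 7 of 7 tested kinase rows had a lower mean level, and in ORF against MT again 7 of 7. Over all retained introns tested, 69.9% were lower in ORF than in NC and 69% lower in ORF than in libraries labelled MT, so most retained introns of the cell leaned the same way. The median level difference of the kinase rows was -0.07 for ORF minus NC, beside -0.03 over all retained introns. In MT against NC 5 of 8 were lower, beside 52.1% of all. Limma called 0 of the kinase rows in each comparison, with 1 at an unadjusted p under 0.05 in each, and 0% of all retained introns in ORF against NC and MT against NC and 0.315% in ORF against MT.

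CLK3 intron 3 (chr15:74620226-74622119), the counterpart of the first retained intron of CLK1, had the most retained-form reads of the tested rows. Its level was 0.063, 0.071 and 0.08 in ORF, 0.105, 0.089 and 0.121 in libraries labelled MT, and 0.095, 0.097 and 0.107 in NC. All ORF levels lay below all levels of both other groups. The log2 odds differed by -0.53 ± 0.29 for ORF against NC (SE; limma adjusted p = 0.429) and by -0.61 ± 0.32 for ORF against MT (adjusted p = 0.45). CLK3 intron 4 had levels of 0.056, 0.059 and 0.053 in ORF, 0.088, 0.044 and 0.077 in libraries labelled MT, and 0.072, 0.084 and 0.048 in NC, and the groups overlapped. CLK1 intron 7 had 0.057, 0.074 and 0.1 in ORF, 0.145, 0.083 and 0.063 in libraries labelled MT, and 0.047, 0.131 and 0.27 in NC, again with overlap.

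CLK4 introns 3 and 4 with exon 4 (chr5:178616949-178618555) form the matching region of CLK4. As in CLK1, its level sets the retained form against the skipping of exon 4, and the spliced message with exon 4 enters neither. It had 49 retained and 2 skipping reads in ORF, 60 and 4 in libraries labelled MT, and 72 and 1 in NC, and it could be tested only in MT against NC (limma adjusted p = 0.997). Reads over this region came to 15.6 per 100 reads of the gene in ORF, 21.9 in libraries labelled MT and 23.9 in NC. For CLK3 intron 3 the same ratio was 10.6 in ORF, 14.8 in libraries labelled MT and 13.2 in NC. The ratio was lowest in ORF for CLK3 intron 3 and for introns 3 and 4 of CLK1 and CLK4. It was also lowest in ORF for CLK3 intron 4 (1.74 in ORF, 1.99 in libraries labelled MT and 1.9 in NC). The same held for each tested PRPF4B row, such as the region inside the last exon (12.4, 13.5 and 13.8, in that order). A lower ratio in ORF was thus not particular to the introns around exon 4. For CLK1 intron 7 it was 5.35 in ORF, 5.31 in libraries labelled MT and 6.86 in NC, so there ORF was not the lowest. These are sums without a test. Set against its own splicing, CLK4 intron 3 (chr5:178617435-178618555) had levels of 0.484, 0.22 and 0.137 in ORF, 0.22, 0.319 and 0.462 in libraries labelled MT, and 1.0, 0.622 and 0.26 in NC, from too few reads to be tested. It is named after its values were seen, and the groups overlapped.

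PRPF4B had 3 tested rows of retained sequence. Intron 12 (chr6:4056436-4057035) had levels of 0.016, 0.063 and 0.046 in ORF, 0.058, 0.045 and 0.113 in libraries labelled MT, and 0.117, 0.063 and 0.082 in NC. The region chr6:4060687-4061014 lies inside the last exon of the reference transcript, so its retained form is the annotated main form. That form had a level of 0.843, 0.81 and 0.954 in ORF, 0.941, 0.914 and 0.918 in libraries labelled MT, and 0.963, 0.964 and 0.967 in NC, and all ORF and all MT levels lay below all NC levels. The skipping form, in which this stretch is removed, had 17 reads in ORF, 11 in libraries labelled MT and 6 in NC. The log2 odds differed by -1.66 ± 0.57 for ORF against NC (SE; limma adjusted p = 0.28) and by -1 ± 0.31 for MT against NC (adjusted p = 0.708). The third row (chr6:4061701-4062212) had levels of 0.788, 0.707 and 0.624 in ORF, 0.853, 0.693 and 0.797 in libraries labelled MT, and 0.601, 0.961 and 1.0 in NC, with overlap.

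**Figure D5:**
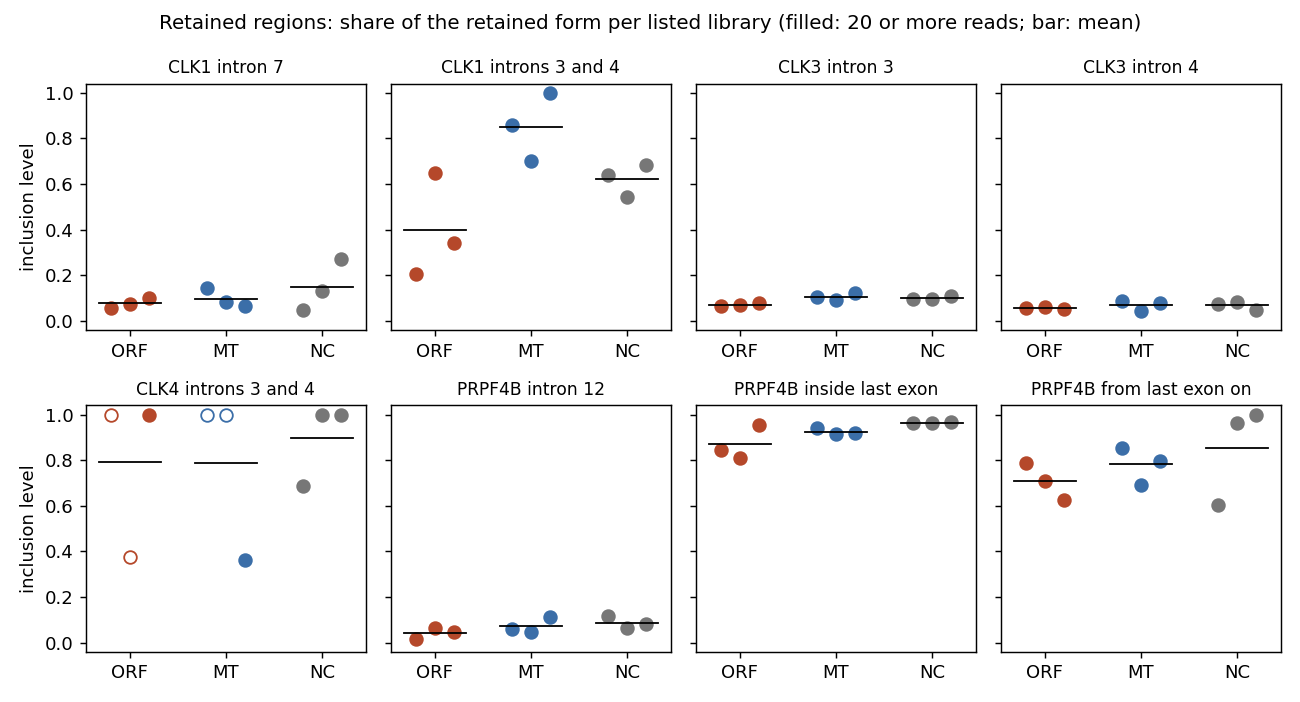
Inclusion level of the 8 tested retained regions of CLK1, CLK3, CLK4 and PRPF4B (vertical axis, 0 to 1) for each listed ORF, MT and NC library, with the mean as a bar; open points rest on fewer than 20 reads. CLK1 introns 3 and 4 lie at 0.205 to 0.647 in ORF, 0.699 to 1.0 in libraries labelled MT and 0.544 to 0.682 in NC.

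Exon 7, with 167 bases in all 4 CLK genes, was skipped in a minority of CLK1 and CLK2 reads. In CLK1 (chr2:200857718-200857884) its level was 0.816, 0.896 and 0.856 in ORF, 0.854, 1.0 and 1.0 in libraries labelled MT, and 0.94, 1.0 and 0.958 in NC. All ORF levels lay below all NC levels and overlapped those of MT. Skipping reads were 29 in ORF, 5 in libraries labelled MT and 4 in NC, and the log2 odds of inclusion differed by -2.04 ± 0.67 for ORF against NC (SE; limma adjusted p = 0.525). In CLK2 (chr1:155266729-155266895) the level was 1.0, 0.885 and 0.808 in ORF, 0.928, 0.955 and 0.767 in libraries labelled MT, and 0.967, 0.847 and 0.919 in NC, with overlap. The skipped exon of CLK1 shares its skipping reads with the alternative acceptor row of exon 8, a row named here after its values were seen. There the longer form, exon 7 and intron 7 joined to exon 8, had a level of 0.601 ± 0.084 in ORF, 0.879 ± 0.209 in libraries labelled MT and 0.892 ± 0.11 in NC (SD, n = 3; limma adjusted p = 0.438 for ORF against NC).

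The remaining kinases had few informative events. In SRPK2, exon 14 (chr7:105126248-105126340, 93 bases) was included at 0.796 ± 0.177 in ORF, 0.73 ± 0.048 in libraries labelled MT and 0.769 ± 0.161 in NC (SD, n = 3). A further exon of the same length, outside the reference transcript (chr7:105125782-105125874), was included at 0.173 ± 0.083 in ORF, 0.152 ± 0.004 in libraries labelled MT and 0.196 ± 0.016 in NC. Both lengths are multiples of 3, and ORF overlapped NC in both. For the further exon, all levels of libraries labelled MT lay below all NC levels. In DYRK1A, an exon outside the reference transcript, between its exons 3 and 4 (chr21:37430269-37430400), was included at 0.069 ± 0.05 in ORF and 0.067 ± 0.025 in NC, and it held 14 inclusion reads in ORF, 0 in libraries labelled MT and 17 in NC. With 0 reads in libraries labelled MT against 91 skipping reads, its level was too low for the filter there. All levels of libraries labelled MT thus lay below all ORF and all NC levels of this exon. A second DYRK1A exon outside the reference transcript (chr21:37421774-37421866) had levels of 0, 0 and 0.12 in ORF, 0.058, 0.089 and 0.093 in libraries labelled MT, and 0.015, 0.093 and 0.062 in NC, with overlap. The same exon has another row with other flanking exons, which is given with the authors' calls. In PRPF4B, an exon past the reference transcript (chr6:4062557-4062633) was included at 0.766 ± 0.227 in ORF, 0.854 ± 0.133 in libraries labelled MT and 0.861 ± 0.128 in NC. A longer form of it (chr6:4062557-4062760, 204 bases) was included at 0.705 ± 0.259 in ORF, 0.79 ± 0.148 in libraries labelled MT and 0.802 ± 0.172 in NC, and the groups overlapped for both forms.

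The authors' deposited table, which gives its own false discovery rate per event, called more. At a rate under 0.05 it lists 15 of the 95 kinase rows in ORF against NC, where it lists 6.3% of all 95054 rows, and 3 of 77 in MT against NC, where it lists 5.12% of 88104 rows. In ORF against NC, 6 of the 13 retained intron rows were listed, beside 11.2% of all retained introns, and of the 15 listed rows 14 were lower and 1 higher in ORF. The direction of the listed rows of all genes was not counted. In MT against NC, 1 of 13 retained intron rows was listed, beside 6.09%. For CLK1 introns 3 and 4 the authors' deposited table gives a level difference of -0.224 for ORF minus NC (rate 4.97e-08) and 0.23 for MT minus NC (rate 1.2e-34). For CLK1 exon 7 it gives -0.11 for ORF minus NC (rate 1.03e-32), and for CLK1 exon 4 it gives 0.432 for MT minus NC (rate 1.2e-66). For CLK4 the authors' deposited table gives -0.347 for intron 3 (rate 1.27e-16), -0.227 for intron 4 (rate 0.000301) and -0.594 for a pair of mutually exclusive exons (rate 8.22e-06), all ORF minus NC. Of the 13 CLK4 rows in ORF against NC, 0 passed the read and level filter used here. The listed row that was higher in ORF is a row of the DYRK1A exon chr21:37421774-37421866, at 0.153 (rate 3.21e-43 in the authors' deposited table). That row rests on 3 inclusion reads and 1 skipping read in ORF and on 11 inclusion and 11 skipping reads in NC, with ORF levels of 0 in the second listed library, 1.0 in the third and none in the first, against NC levels of 0.235, 0.425 and 0.381. Rows that share junction reads, such as the CLK1 rows at exon 4 and at exon 7, are not independent of each other. The limma test used here takes its error from the spread between the 3 libraries of a group, and the sources used here do not name the test behind the deposited rates.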

How the data were processed

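Total RNA of 9 HCT-116 samples had been extracted with Trizol and sequenced on Illumina libraries, per the labels. The submitters' processing notes name GRCh38 and hg38 as builds. Which aligner, counter and strandedness applied was not given in the sources used here. Gene tables, as deposited, number 1 per comparison with NC and hold a normalized signal that is a whole multiple of 1 step in each column (100% of values within 0.1 of a whole read), with log2 fold changes and p-values by the authors. Reads were recovered by dividing by the step. The deposited splicing tables hold reads of 2 forms, levels and p-values for 5 event types. Where commas between libraries were missing, reads were split so that levels matched within 0.001; where several splits matched, the 1 with a largest-to-smallest ratio under 4 was taken if all others were over 8. This gave reads for 99.99% of ORF and 100% of MT events.

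Genes reaching 1 normalized read in 3 or more libraries were tested with limma 3.58.1 (R 4.3.3) on log2(value + 1), with Benjamini-Hochberg adjustment over all genes. Fold changes on this scale understate changes of genes with few reads. The comparisons with NC were each made within their own table, and ORF with MT, like the levels printed, on recovered reads over 1 set of size factors for 29612 shared genes. Splicing was tested with limma on log2 odds of inclusion (pseudocount 0.5, scaled by length), adjusted within each event type. edgeR 4.0.16 and DESeq2 1.42.0 on recovered reads were alternatives. The limma gene test was tried on simulated data, and the limma splicing test on simulated skipped exons of middle level with ample reads. The other event types, edgeR, DESeq2, the GC content and length adjustment and the replicate block were not. Kinases and gene lists were chosen with earlier results of these data known. All 8 kinases are named; named events are the tested retained introns, the 2 tested skipped exons with most reads per kinase and exon 4 of the CLK genes; other genes are named if they pass, or as the gene with most reads of their list. Event positions are those deposited, matched to exons of GENCODE 29, from whose transcripts the sequences were read. Protein sequences were not used here.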

Additional observations from a re-analysis of the deposited data

How the results depend on the processing

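No kinase event was called under any alternative run, and without a block the count of kinases called stayed at 0 except as follows. With GC content and length adjustment it was 1 in ORF against NC (CLK1) and 2 in ORF against MT (CLK1 and CLK2). By DESeq2 it was 1 in ORF against MT. Leaving out 1 library gave 0 to 1 in ORF against NC and in ORF against MT, the 1 being CLK1 without ORF replicate 1. The replicate block alone gave 0 in all 3 comparisons. The replicate block with GC content and length adjustment gave 2 in ORF against NC, 1 in MT against NC and 1 in ORF against MT. Calls over all genes also varied widely between the alternatives, as given in the next paragraph. These counts therefore do not single out the kinases. Deviations of same-numbered ORF and NC libraries correlated at 0.337, -0.669 and 0.342, and those of MT and NC at -0.272, 0.648 and 0.615. These deviations also follow GC content, so they cannot tell whether the replicate numbers pair the samples. No paired analysis was possible for splicing because the columns carry no replicate number.

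Over all genes, ORF against NC had 103 calls, 96 to 2461 under the alternatives (301 with the replicate block) and 24 to 1494 with 1 library left out. MT against NC had 0 calls, with up to 62, and ORF against MT had 89, with 46 to 1862. The call of SRSF1 in ORF against MT was also lost with a pseudocount of 0.5, a minimum of 10, quantile normalization and the replicate block (limma adjusted p = 0.142 with the block).

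With GC content and length adjustment, with or without the replicate block, these log2 fold changes changed sign: 0.24 for DYRK1A and 0.051 for PRPF4B in ORF against NC; 0.00102 for CLK1, 0.063 for CLK4, 0.055 for SRPK2 and 0.023 for DYRK1A in MT against NC; and 0.053 for CLK3 in ORF against MT. With a pseudocount of 2, log2 odds changed sign to -0.019 for CLK2 exon 7 in ORF against NC, and to 0.012 for CLK3 exon 4 and 0.023 for the 204-base PRPF4B exon in MT against NC. The cause was not tested. None of these was past the threshold.

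Leaving out 1 library turned further signs, none of them called. In ORF against NC the log2 fold change ran from -0.076 to 0.024 for CLK2, -0.28 to 0.083 for SRPK1, -0.17 to 0.077 for DYRK1A and -0.43 to 0.099 for PRPF4B. In MT against NC it ran from -0.41 to 0.095 for CLK1, -0.38 to 0.051 for CLK4 and -0.397 to 0.0024 for PRPF4B. In ORF against MT it ran from -0.104 to 0.081 for CLK3, -0.085 to 0.28 for SRPK1, -0.19 to 0.052 for SRPK2, -0.021 to 0.22 for DYRK1A and -0.22 to 0.36 for PRPF4B. The log2 odds in ORF against NC ran from -2.33 to 0.23 for the 77-base PRPF4B exon, -0.79 to 1.27 for SRPK2 exon 14, -0.68 to 0.204 for the other SRPK2 exon, -1.03 to 1.32 for CLK2 exon 7 and -0.48 to 0.45 for the DYRK1A exon. In MT against NC they ran from -1.2 to 0.23 for SRPK2 exon 14, -0.83 to 0.44 for CLK2 exon 7, -0.47 to 0.29 for CLK3 exon 4, -1.3 to 0.91 for the 77-base and -0.999 to 0.82 for the 204-base PRPF4B exon, -1.19 to 0.22 for CLK1 intron 7, -0.0396 to 0.202 for CLK3 intron 3 and -0.22 to 0.33 for CLK3 intron 4. In ORF against MT they ran from -1.87 to 0.24 for the 77-base PRPF4B exon, -0.26 to 1.72 for SRPK2 exon 14, -0.25 to 0.64 for the other SRPK2 exon, -0.73 to 1.62 for CLK2 exon 7 and -0.61 to 0.042 for CLK1 intron 7.

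The alternative that keeps events with 1 matching split only was chosen after seeing the data. Read depth left SRPK1 with no event tested, CLK4 with 1 and exon 4 of CLK1 untested.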
